A study of Mus musculus with 6 samples.

Results

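Cholesterol is built in nearly all nucleated cells from acetyl-CoA through the mevalonate pathway, and the transcripts described here are those of 7 enzymes of that pathway and of 1 of its regulators. The 8 genes were taken as a fixed list of symbols, chosen with earlier results of these data known. They were found through their Ensembl identifiers, and all 8 were among the 30409 genes with a value in each library. In pathway order the enzymes are Hmgcs1, which condenses acetyl units into HMG-CoA, Idi1, which interconverts the isoprene units isopentenyl and dimethylallyl diphosphate, Fdps, which joins them into farnesyl diphosphate, Fdft1, which makes squalene, Sqle, which oxidises squalene, Lss, which closes the ring to lanosterol, and Cyp51, which demethylates lanosterol. Srebf2 encodes SREBP2, the membrane-bound transcription factor that activates these enzymes. When sterols in the endoplasmic reticulum are low, SREBP2 is escorted to the Golgi and cut, and its freed part binds sterol regulatory elements, often beside NF-Y and Sp1 sites. When sterols are plentiful, INSIG proteins hold it back. The list is described as one of synthesis and uptake, but no receptor for lipoprotein uptake is among its 8 genes.

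The RNA came from Lineage-Sca1+cKit+CD34-Flk2- cells, the gate for long-term haematopoietic stem cells (LT-HSCs), sorted from the bone marrow of C57BL/6 mice. The 4 groups were Twist1 conditional knockout (cKO) mice 12 days after irradiation, wild-type (WT) mice 12 days after irradiation, Twist1 cKO mice at steady state without treatment, and WT mice at steady state without treatment. Twist1 is a transcription factor of the helix-loop-helix class. The Cre line behind the deletion, the radiation dose, the age of the mice and the number pooled for a library are not stated in the labels. With 1 library in each group, the differences below have no replicate behind them and were not tested. Intervals are exact 95% intervals of counting error only.

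Values are FPKM as deposited, that is, fragments scaled to gene model length and to a library size. The size implied by the values was not the recovered read total but 0.895 (irradiated WT) to 1.15 (irradiated cKO) times it. Reads recovered from the values came to between 20349832 and 25100818 per library over all genes. Twist1 had 0 reads in the irradiated cKO library, 5 in the irradiated WT library, 2 in the steady-state cKO library and 6 in the steady-state WT library. The 15 LT-HSC genes listed as markers of the gate were at a summed 279 FPKM in the irradiated cKO library and 120 FPKM in the irradiated WT library, against 755 FPKM in the steady-state cKO library and 852 FPKM in the steady-state WT library. Ly6a, the gene of Sca1, made up most of the sum in the irradiated libraries, and the other 14 genes summed to 23.3 and 31.3 FPKM in the irradiated cKO and WT libraries and 393 and 319 FPKM in the steady-state cKO and WT libraries, which turns the order of cKO and WT in both conditions. The 13 erythroid markers ran the other way, at a summed 16894 and 13928 FPKM in the irradiated cKO and WT libraries and 2716 and 4117 FPKM in the steady-state cKO and WT libraries. At least 14 of these 15 LT-HSC genes were 1.5-fold or more lower in the irradiated library of each genotype, so the label goes against most of its markers there. Xist, made from the silenced X, had 241 and 398 reads in the irradiated cKO and WT libraries and 7 and 8 reads in the steady-state cKO and WT libraries. The Y-linked Ddx3y had 2 and 6 reads against 1624 and 1385 reads in the same order. By these transcripts the irradiated libraries look female and the steady-state libraries male. Irradiation and the sex of the mice therefore cannot be told apart in any irradiated against steady-state comparison here. In RNA from a sorted population, fewer cells that express a gene and less RNA per cell cannot be told apart either.

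**Figure D1:**
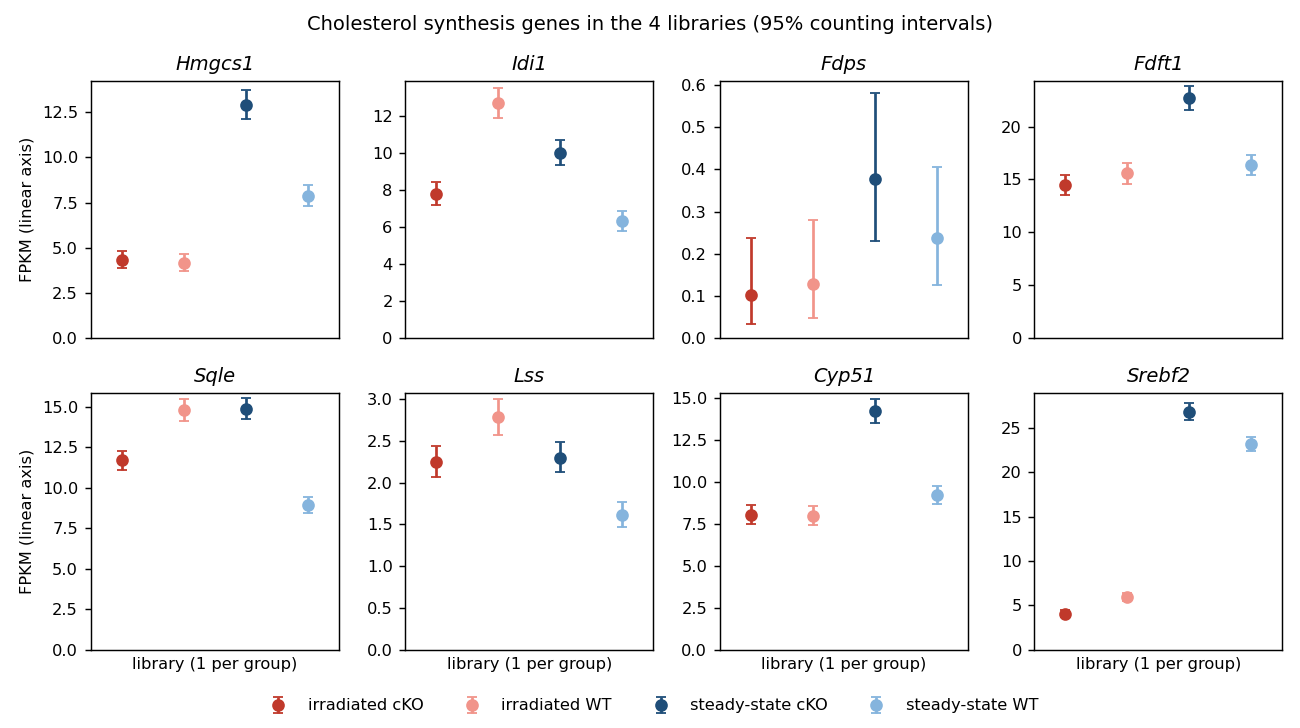
FPKM of each cholesterol gene (vertical axes, linear, each from 0) in the irradiated cKO, irradiated WT, steady-state cKO and steady-state WT libraries, 1 library per group, with exact 95% counting intervals as bars. The steady-state cKO library is above the steady-state WT library in all 8 panels, and Srebf2 lies at 4.08 and 5.91 FPKM in the irradiated cKO and WT libraries against 26.8 and 23.1 FPKM in the steady-state cKO and WT libraries.

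Srebf2 (ENSMUSG00000022463, chr15:82147269-82205379, all positions in GRCm38) was the most abundant of the 8 per kilobase in both steady-state libraries. It had 4.08 FPKM in the irradiated cKO library, 5.91 FPKM in the irradiated WT library, 26.8 FPKM in the steady-state cKO library and 23.1 FPKM in the steady-state WT library. Both irradiated libraries were low, and among the 8 genes Srebf2 ranked 6 of 8 in the irradiated cKO library and 5 of 8 in the irradiated WT library. Its range over the libraries was 6.58-fold, the widest of the 8.

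Hmgcs1 (ENSMUSG00000093930, chr13:119690351-119708260) had 4.35 FPKM in the irradiated cKO library, 4.18 FPKM in the irradiated WT library, 12.9 FPKM in the steady-state cKO library and 7.88 FPKM in the steady-state WT library. The irradiated libraries were both low and differed by less than their counting intervals, and the steady-state cKO library stood highest. Idi1 (ENSMUSG00000058258, chr13:8885606-8892396) had another order, with 7.80 FPKM in the irradiated cKO library, 12.7 FPKM in the irradiated WT library, 9.99 FPKM in the steady-state cKO library and 6.31 FPKM in the steady-state WT library. It was highest in irradiated WT cells and lowest in steady-state WT cells.

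Fdps (ENSMUSG00000059743, chr3:89093588-89101967) was close to the limit of detection. It had 5 reads or 0.101 FPKM in the irradiated cKO library, 6 reads or 0.129 FPKM in the irradiated WT library, 20 reads or 0.377 FPKM in the steady-state cKO library and 13 reads or 0.237 FPKM in the steady-state WT library. Each of the other 6 enzymes had at least 299 reads in every library. Processed pseudogenes of this gene are known in human, and the counting of reads that match several places is not described in the labels, so these 4 values are uncertain; any such part was not tested. Fdft1 (ENSMUSG00000021273, chr14:63145150-63181687), at the branch point where farnesyl diphosphate is committed to sterols, varied least over the libraries (1.57-fold). It had 14.5 FPKM in the irradiated cKO library, 15.6 FPKM in the irradiated WT library, 22.7 FPKM in the steady-state cKO library and 16.4 FPKM in the steady-state WT library, and the steady-state cKO library stood above the rest, whose intervals lay between 13.6 and 17.3 FPKM.

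Sqle (ENSMUSG00000022351, chr15:59315092-59331193), a rate-limiting step of the sterol-specific part of the pathway, had 11.7 FPKM in the irradiated cKO library, 14.8 FPKM in the irradiated WT library, 14.9 FPKM in the steady-state cKO library and 8.96 FPKM in the steady-state WT library. The irradiated WT and steady-state cKO libraries were high and differed by less than their counting intervals. Lss (ENSMUSG00000033105, chr10:76531565-76557139) was low throughout, with 2.25 FPKM in the irradiated cKO library, 2.78 FPKM in the irradiated WT library, 2.30 FPKM in the steady-state cKO library and 1.61 FPKM in the steady-state WT library. It was highest in the irradiated WT library and lowest in the steady-state WT library. Cyp51 (ENSMUSG00000001467, chr5:4080674-4104697) had 8.07 FPKM in the irradiated cKO library, 7.98 FPKM in the irradiated WT library, 14.3 FPKM in the steady-state cKO library and 9.22 FPKM in the steady-state WT library, and as with Hmgcs1 the irradiated libraries lay together and the steady-state cKO library alone was high.

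The first comparison asked what goes with loss of Twist1 in unstressed cells. All 8 cholesterol genes were higher in the steady-state cKO library than in the steady-state WT library, and for 7 of them, all but Fdps, the counting interval of the ratio lay above 1. Sqle was 1.66-fold higher (1.55 to 1.78), Hmgcs1 1.64-fold (1.49 to 1.81), Idi1 1.58-fold (1.42 to 1.76) and Cyp51 1.55-fold (1.43 to 1.67). Lss was 1.43-fold higher (1.26 to 1.62), Fdft1 1.38-fold (1.28 to 1.49) and the regulator Srebf2 1.16-fold (1.10 to 1.22). The ratio for Fdps was 1.59 with an interval of 0.751 to 3.47, so its counts did not settle a direction.

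On the log2 scale of FPKM + 1, on which differences are given from here unless called folds and which understates the change of low genes, the median over the 8 was 0.51, and the median over the 7157 genes that reached 5 FPKM in 1 or both libraries was 0.0078. Sqle (0.67), Hmgcs1 (0.65) and Idi1 (0.59) were at least 1.5-fold higher on that scale, 3 of the 8 genes, where 1.77% of all genes kept were. The 8 were chosen with earlier results of these data known, so this share is set beside them as a description only. None of the 8 was at least 1.5-fold lower, where 5.51% of genes were, and none was 2-fold apart in either direction, where 0.643% were 2-fold higher and 2.7% were 2-fold lower. Fdps and Lss did not reach 5 FPKM in either library, and the other 6 did in both. Each of the 8 stayed higher in the cKO library under every scaling tried, though the counts of Fdps do not settle its direction. A change of pseudocount alone cannot turn a sign. Over the scalings and pseudocounts tried, Hmgcs1 lay between 0.48 and 0.86 and Srebf2 between 0.18 and 0.40. Markers of other cells moved between the same libraries: the 12 neutrophil markers summed to 2710 FPKM in the cKO library and 1625 FPKM in the WT library, with 10 of 12 at least 1.5-fold higher, and the 12 macrophage and monocyte markers summed to 1349 FPKM in the cKO library and 2559 FPKM in the WT library, with 11 of 12 at least 1.5-fold lower. The 10 B and plasma cell markers summed to 65745 FPKM in the cKO library and 109293 FPKM in the WT library, with 5 of 10 at least 1.5-fold lower, and the 13 erythroid markers to 2716 FPKM in the cKO library and 4117 FPKM in the WT library, with 6 of 13 lower. No marker of these 4 lists was at 0 in any library. The 5 early myeloid granule markers were all lower in the cKO library, none by 1.5-fold, with sums of 1286 FPKM in the cKO library and 1676 FPKM in the WT library. Of 10 stromal and endothelial markers 3 were at least 1.5-fold lower, and of 10 T and NK cell markers 0 were 1.5-fold apart. The part of such cells in the values of the cholesterol genes was not tested. The 16 proliferation genes held level, at a summed 620 FPKM in the cKO library and 625 FPKM in the WT library, with none of them 1.5-fold apart.

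Other genes of the pathway, from lists chosen with earlier results of these data known, went mostly the same way by smaller amounts. Of 14 other sterol synthesis enzymes, 12 were higher and 2 lower in the steady-state cKO library, the median was 0.25 and none reached 1.5-fold. Msmo1, the C4 methyl oxidase that acts after Cyp51, came nearest at 20.3 FPKM in the cKO library and 13.7 FPKM in the WT library (1.48-fold, 1.40 to 1.57). Mvd, which makes isopentenyl diphosphate, was 1.33-fold higher (1.13 to 1.57) and Dhcr7, which makes cholesterol from 7-dehydrocholesterol, 1.33-fold (1.19 to 1.48). Among 10 genes of SREBP processing and sensing, Insig1, which retains SREBP in the endoplasmic reticulum and is itself an SREBP target, had 15.9 FPKM in the cKO library and 9.12 FPKM in the WT library (1.74-fold, 1.59 to 1.91). It was the 1 gene of that list past 1.5-fold, and the list's median was 0.059.

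**Figure D2:**
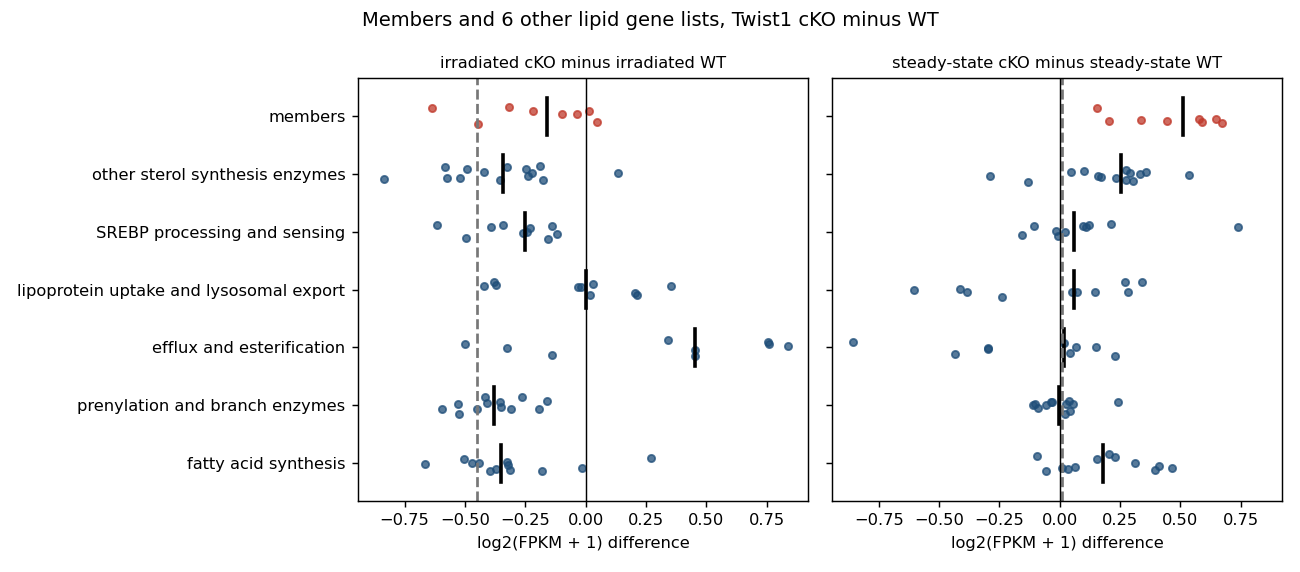
Differences on the log2(FPKM + 1) scale, cKO minus WT (horizontal axes), of the 8 cholesterol genes (red) and of the genes of 6 other lipid lists (blue), in irradiated cells on the left and at steady state on the right; each point is 1 gene, short black bars are list medians and dashed lines the median of all genes kept (-0.45 after irradiation and 0.0078 at steady state). At steady state all 8 red points lie above 0 with a median of 0.51, and after irradiation they have a median of -0.16, to the right of the dashed line.

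The fatty acid synthesis genes, many of them targets of the related factor SREBP1, had 10 of 12 higher in the steady-state cKO library with a median of 0.18 and none past 1.5-fold. Fads2, the delta-6 desaturase, had the largest difference among them at 1.40-fold (1.27 to 1.55), and Acly, which supplies cytosolic acetyl-CoA, was 1.35-fold higher (1.28 to 1.44). Enzymes of prenylation and other branches, which use the same isoprenoid units, were split 6 and 6 with a median that rounds to 0. In the list of lipoprotein uptake and lysosomal export (10 genes, median 0.061), Lipa, the lysosomal acid lipase, was 1.55-fold lower at 17.0 FPKM in the cKO library and 26.4 FPKM in the WT library. The cholesterol efflux and esterification list (9 genes, median 0.017) held 1 gene past 1.5-fold, Nr1h3, which encodes the liver X receptor alpha and is abundant in macrophages, at 3.04 FPKM in the cKO library and 6.32 FPKM in the WT library. Macrophage markers were lower in the same library, as given above, and the part of such cells in these values was not tested.

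The promoters of the enzymes are shown because 7 of the 8 genes differed in the same direction at steady state beyond counting error. RefSeq promoter windows of 300 bases (250 before to 50 after the table's start site, GRCm38.p6) were matched for 5 of the 8, namely Hmgcs1, Idi1, Lss, Cyp51 and Srebf2. The core of the sterol regulatory element, searched as CACNCCAC on both strands, was found in 1 of the 5 windows, that of Hmgcs1 (position -136 relative to the start), and in 6.24% of all 32851 windows. The NF-Y box, searched as CCAAT on both strands, was in 5 of 5 and in 37.4% of all windows. The Sp1 box, searched as GGGCGG on both strands, was in 5 of 5 and in 35.7% of all windows. These are exact matches of letters, with no measure of binding. Variant forms of the sterol element were not searched, so a window without a match was not shown to lack the element. The 250 bases before the start are printed for Hmgcs1 (chr13:119690101-119690350, plus strand), Idi1 (chr13:8885356-8885605, plus strand) and Cyp51 (chr5:4104698-4104947, minus strand), the 3 with the largest steady-state differences among those matched, and for Srebf2 (chr15:82147019-82147268, plus strand), the gene that differed most with irradiation. They run 5′ to 3′ on the strand of the gene, with the sterol element core and the NF-Y boxes in capitals, in either orientation. The sterol element and NF-Y matches did not overlap each other, and 1 further NF-Y match of Hmgcs1, at position 10, lies past the printed stretch.
Hmgcs1: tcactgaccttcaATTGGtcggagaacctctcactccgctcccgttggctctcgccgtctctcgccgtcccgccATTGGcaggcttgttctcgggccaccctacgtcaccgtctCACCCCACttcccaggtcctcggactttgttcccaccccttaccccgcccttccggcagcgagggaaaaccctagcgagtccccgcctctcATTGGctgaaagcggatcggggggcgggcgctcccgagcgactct
Idi1: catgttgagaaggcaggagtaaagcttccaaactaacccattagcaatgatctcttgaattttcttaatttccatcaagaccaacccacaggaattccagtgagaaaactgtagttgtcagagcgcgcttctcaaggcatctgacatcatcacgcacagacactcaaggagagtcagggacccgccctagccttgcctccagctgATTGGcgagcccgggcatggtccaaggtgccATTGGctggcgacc
Cyp51: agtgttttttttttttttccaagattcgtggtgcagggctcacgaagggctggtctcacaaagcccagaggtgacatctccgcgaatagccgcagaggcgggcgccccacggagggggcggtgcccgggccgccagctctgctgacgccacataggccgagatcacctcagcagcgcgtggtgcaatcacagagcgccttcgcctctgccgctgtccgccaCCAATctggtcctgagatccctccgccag
Srebf2: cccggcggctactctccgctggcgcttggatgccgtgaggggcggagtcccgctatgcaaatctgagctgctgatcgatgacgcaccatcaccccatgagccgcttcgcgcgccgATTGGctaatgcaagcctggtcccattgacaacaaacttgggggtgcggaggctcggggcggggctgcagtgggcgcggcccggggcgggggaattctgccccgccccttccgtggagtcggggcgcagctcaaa

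**Figure D3:**
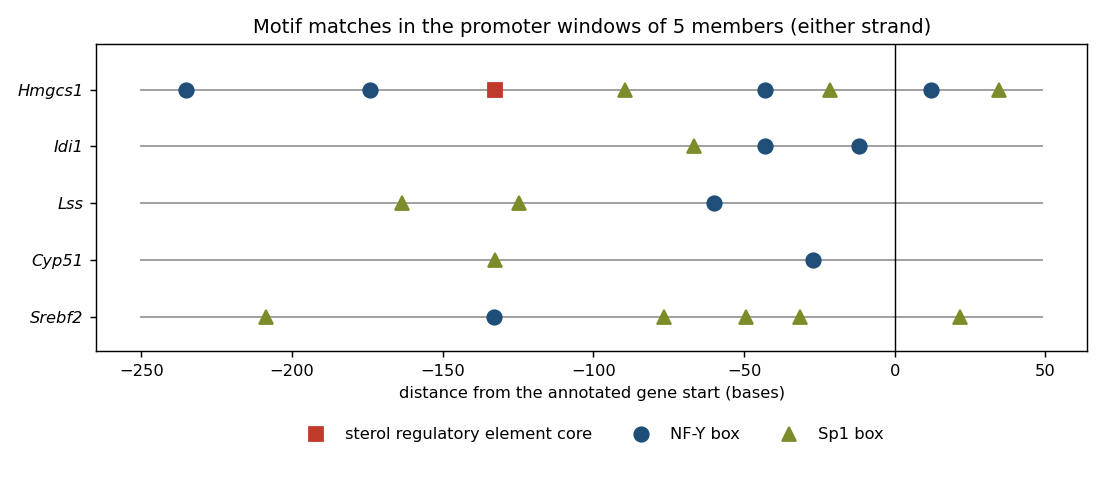
Positions of motif matches on either strand in the promoter windows of 5 cholesterol genes (rows), as distance in bases from the start site (horizontal axis); squares are sterol regulatory element cores, circles NF-Y boxes and triangles Sp1 boxes. Every window holds at least 1 circle and 1 triangle, and the 1 square lies in the Hmgcs1 window.

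The second comparison asked the same 12 days after irradiation. Between the irradiated cKO and WT libraries the cholesterol genes no longer lay on the same side. Idi1 was 1.62-fold lower in the cKO library (1.47 to 1.80), Srebf2 1.45-fold lower (1.29 to 1.63), Sqle 1.27-fold lower (1.18 to 1.36) and Lss 1.24-fold lower (1.11 to 1.39). Hmgcs1 (ratio 1.04, 0.889 to 1.22), Cyp51 (1.01, 0.917 to 1.12), Fdft1 (0.929, 0.849 to 1.02) and Fdps (0.787, 0.190 to 3.10) had intervals that include 1.

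Some of these directions rest on the scale: under the 8 scales and pseudocounts compared, Idi1 was lower and Hmgcs1 and Cyp51 higher in the cKO library in all 8, while the other 5 genes changed sign. Only the rescalings could turn a sign, since a change of pseudocount cannot. The median over all 6348 genes kept was -0.45, the median over the 8 was -0.16, and 7 of the 8 lay above the median of all genes. Relative to that median Hmgcs1 stood 0.50 higher and Cyp51 0.46 higher, and Idi1, at -0.64 as deposited, remained 0.19 lower. Scaled to recovered read totals, the median over all genes kept was -0.11. On that scale 6 of the 8 were higher in the cKO library, with Idi1 (ratio 0.793) and Srebf2 (ratio 0.888) lower. Without the 50 most abundant genes 6 of 8 were likewise higher. Only Idi1 was at least 1.5-fold lower as deposited, 1 of 8 genes, where 24.6% of genes kept were, and none was 1.5-fold higher, where 7.42% were. None was 2-fold apart, where 4.47% of genes were 2-fold higher and 1.04% were 2-fold lower. Of the 8, 5 reached 5 FPKM, and the median over these 5 was -0.32. Fdps, among the 7 above the median of all genes, had only 5 and 6 reads.

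The other 14 sterol enzymes had 13 lower and 1 higher in the irradiated cKO library with a median of -0.34, which is above that of all genes. Pmvk, which makes mevalonate diphosphate, had 29.8 FPKM in the cKO library and 44.9 FPKM in the WT library (ratio 0.664), and Erg28, a scaffold of sterol demethylation, had 25.6 FPKM in the cKO library and 38.8 FPKM in the WT library (ratio 0.660). Srebf1, which encodes SREBP1, had 5.84 FPKM in the cKO library and 9.47 FPKM in the WT library (ratio 0.617). The prenylation and branch enzymes (12 of 12 lower, median -0.38) and the fatty acid synthesis genes (11 of 12 lower, median -0.35) had values of the same size, and the lipoprotein uptake and lysosomal export list was split 5 and 5. The efflux and esterification list had a median of 0.45 over 9 genes, though the median was -0.33 over the 3 that reached 5 FPKM. The 3 of its genes at least 1.5-fold higher were Nr1h3, at 14.6 FPKM in the cKO library and 8.26 FPKM in the WT library, Abcg1, which exports cholesterol, at 2.50 FPKM in the cKO library and 0.955 FPKM in the WT library, and Cyp27a1, a sterol hydroxylase, at 2.67 FPKM in the cKO library and 1.16 FPKM in the WT library. In the same pair all 12 macrophage and monocyte markers were at least 1.5-fold higher, with a summed 2673 FPKM in the cKO library and 1375 FPKM in the WT library. Neutrophil markers summed to 1340 FPKM in the cKO library and 441 FPKM in the WT library (9 of 12 at least 1.5-fold higher), and proliferation genes to 1278 FPKM in the cKO library and 1877 FPKM in the WT library (8 of 16 at least 1.5-fold lower). B and plasma cell markers summed to 55636 FPKM in the cKO library and 23554 FPKM in the WT library (7 of 10 at least 1.5-fold higher). Early myeloid granule markers summed to 164 FPKM in the cKO library and 47.6 FPKM in the WT library (4 of 5 at least 1.5-fold higher). Of 10 T and NK cell markers 8 were at least 1.5-fold higher. Of 13 erythroid markers 7 were higher and 4 lower by that much, and of 10 stromal and endothelial markers 1 was lower. Their part in the values of the cholesterol genes was not tested.

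The genotype difference after irradiation less that at steady state was negative for all 8 genes, with a median of -0.58. For the 7772 genes that reached 5 FPKM in 1 or more libraries, the median was -0.40 and the quartiles were -0.56 and -0.14. Most genes were therefore negative as well, and the sign alone does not set the 8 apart. Their median was close to the lower quartile, and 7 of them had values under -0.40. Idi1 had the largest change (-1.22, a ratio of ratios of -1.36 on the log2 scale with a counting standard error of 0.11), followed by Sqle (-0.99, ratio of ratios -1.07, standard error 0.072). For the other 6 the change was between -0.65 and -0.19. The -0.19 was that of Fdps, whose low counts left its change unsettled (ratio of ratios -1.01, standard error 1.01).

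**Figure D4:**
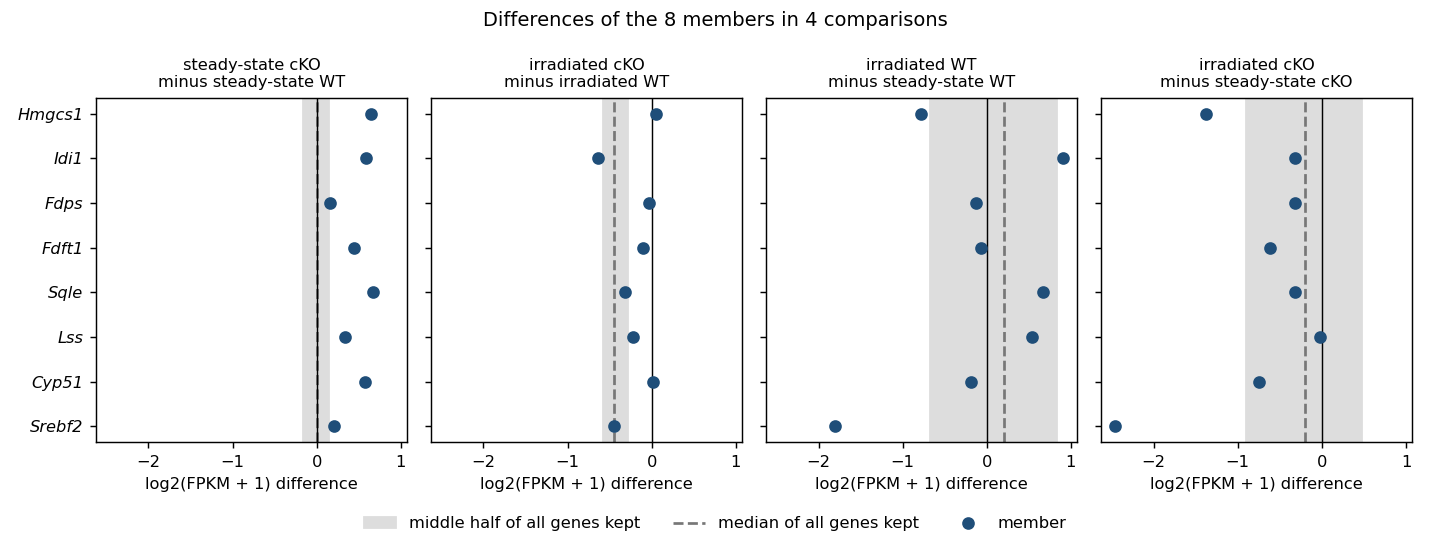
Differences on the log2(FPKM + 1) scale (horizontal axes) of the 8 cholesterol genes (rows) in the 4 comparisons; points are genes, grey bands the range between the quartiles of all genes kept and dashed lines their median. At steady state all 8 points lie to the right of the median of all genes, and in both irradiation panels Srebf2 lies farthest to the left, at -1.80 in WT and -2.45 in cKO cells.

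The third comparison set irradiated against steady-state WT cells. Irradiated WT cells had less Srebf2 (3.91-fold lower, 3.60 to 4.27) and less Hmgcs1 (1.89-fold lower, 1.64 to 2.17), but more Idi1 (2.01-fold higher, 1.81 to 2.23), Lss (1.73-fold, 1.53 to 1.95) and Sqle (1.65-fold, 1.54 to 1.77). Srebf2 and 3 of the enzymes thus differed in opposite directions in this pair. Cyp51 was 1.16-fold lower (1.05 to 1.27), which turned to higher with upper quartile scaling. That scaling also moved the median over all genes kept, to 0.76. The intervals of Fdft1 (ratio 0.951, 0.873 to 1.03) and Fdps (0.543, 0.169 to 1.53) include 1.

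The median over the 8 genes was -0.10 and that over all 7418 genes kept was 0.21. At least 1.5-fold higher were Idi1 (0.90) and Sqle (0.67), 2 of 8, where 34.9% of genes were; at least 1.5-fold lower were Srebf2 (-1.80) and Hmgcs1 (-0.78), 2 of 8, where 26.9% were. Lss, low in level, reached 0.53 on this scale. These 2 counts of 8 are near the shares over all genes. Srebf2 alone was 2-fold lower, where 18.9% of genes were, and none was 2-fold higher on this scale, where 18.9% were. Of the 8, 6 reached 5 FPKM. The other 14 sterol enzymes had a median of 0.44, with 11 higher and 3 lower. Pmvk (2.36-fold, 2.18 to 2.57) and Ebp, the sterol isomerase that acts late in the pathway (2.09-fold, 1.99 to 2.20), were higher by the most. Insig1 was low beside Srebf2, at 3.05 FPKM in irradiated and 9.12 FPKM in steady-state WT cells. The lipoprotein uptake and lysosomal export list had 3 genes higher and 7 lower with a median of -0.38, and 4 of its 10 genes were at least 1.5-fold lower. Among these Mylip, a ubiquitin ligase for lipoprotein receptors, had 0.634 FPKM in irradiated and 4.74 FPKM in steady-state WT cells. Scarb1, a receptor for high-density lipoprotein, was the 1 gene of that list at least 1.5-fold higher (1.83-fold, 1.73 to 1.95). Proliferation genes were higher in the same pair, with 15 of 16 at least 1.5-fold and sums of 1877 FPKM in irradiated and 625 FPKM in steady-state WT cells, and all 13 erythroid markers were likewise at least 1.5-fold higher. Many markers of other cells were at least 1.5-fold lower in irradiated WT cells. They were 5 of 5 early myeloid granule markers (47.6 FPKM in irradiated and 1676 FPKM in steady-state WT cells, summed) and 10 of 10 B and plasma cell markers (23554 and 109293 FPKM). So were 11 of 12 macrophage and monocyte markers (1375 and 2559 FPKM), 7 of 12 neutrophil markers (441 and 1625 FPKM) and 6 of 10 T and NK cell markers (87.3 and 374 FPKM). The remaining macrophage and monocyte marker, Marco, was 9.06-fold higher. Of 10 stromal and endothelial markers 5 were at least 1.5-fold lower and 3 higher. The part of these cells in the values of the cholesterol genes was not tested.

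The fourth comparison set irradiated against steady-state cKO cells. All 8 genes were lower in irradiated cKO cells as deposited, and for all but Lss (ratio 0.977, 0.870 to 1.10) the interval lay below 1. Srebf2 was 6.58-fold lower (5.97 to 7.25), Hmgcs1 2.97-fold (2.62 to 3.37), Cyp51 1.76-fold (1.62 to 1.92) and Fdft1 1.57-fold (1.45 to 1.70). Idi1 was 1.28-fold lower (1.16 to 1.42) and Sqle 1.27-fold (1.19 to 1.36), and both turned to higher with upper quartile scaling. That scaling also moved the median over all genes kept, to 0.45. Fdps was 3.72-fold lower on 5 against 20 reads (1.35 to 12.7).

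The median over the 8 was -0.47 and over all 7393 genes kept it was -0.20. The 4 at least 1.5-fold lower were Srebf2 (-2.45), Hmgcs1 (-1.38), Cyp51 (-0.75) and Fdft1 (-0.61), where 34.6% of genes were, and none was 1.5-fold higher, where 20.8% were. Srebf2 and Hmgcs1 were 2-fold lower, 2 of 8, where 22.6% of genes were, and none was 2-fold higher, where 10.3% were. Of the 8, 6 reached 5 FPKM. Among the other sterol enzymes, Msmo1 was lower at 9.52 FPKM in irradiated and 20.3 FPKM in steady-state cKO cells, and Sc5d, the C5 desaturase of late sterol synthesis, had a ratio of 0.596 (0.541 to 0.656), whereas Ebp was 1.62-fold higher (1.53 to 1.72). Insig1 had 2.39 FPKM in irradiated and 15.9 FPKM in steady-state cKO cells, 1 of 3 genes of its list at least 1.5-fold lower. Of the 12 fatty acid synthesis genes 5 were at least 1.5-fold lower and 1 higher, with a median of -0.21. The desaturase genes Fads1 (ratio 0.340), Scd2 (0.389) and Fads2 (0.462) were lower by the most, while Elovl1, a fatty acid elongase and the most abundant of the list, had 118 FPKM in irradiated and 69.3 FPKM in steady-state cKO cells. In the same pair 10 of 12 macrophage markers, all 13 erythroid markers and 10 of 16 proliferation genes were at least 1.5-fold higher. Lower by at least 1.5-fold were 5 of 5 early myeloid granule markers (164 FPKM in irradiated and 1286 FPKM in steady-state cKO cells, summed), 6 of 12 neutrophil markers (1340 and 2710 FPKM) and 4 of 10 B and plasma cell markers (55636 and 65745 FPKM), while T and NK cell markers had 4 of 10 higher and 2 lower. Stromal and endothelial markers had 3 of 10 higher and 5 lower. The part of these cells was not tested. The comparisons share libraries pairwise, since each of the 4 libraries enters 2 of them.

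Among 5788 other genes with a mean of at least 5 FPKM, the 6 nearest to the median pattern of the 8 over the 4 libraries, by Euclidean distance between log2(FPKM + 1) values centred on each gene's mean, were Erlin1 (distance 0.0325), Zfp53 (0.0583), Tollip (0.0809), Stat6 (0.0902), Ncoa5 (0.104) and Lat (0.111). Erlin1 had 5.08 FPKM in the irradiated cKO library, 5.46 FPKM in the irradiated WT library, 7.83 FPKM in the steady-state cKO library and 5.86 FPKM in the steady-state WT library. Of the 8 cholesterol genes themselves Fdft1 lay closest to that pattern (0.0766) and Srebf2 farthest from it (1.86), so the 8 differed among themselves in pattern.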

How the data were processed

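RNA-seq was analysed from 4 libraries, 1 per group; the 2 ATAC-seq samples were not analysed here. The values are FPKM per gene as deposited by the authors, 1 file per library. Tools named by the submitters' processing notes, without a role, are HOMER, MACS2 2.1.0, BWA 0.7.12-r1039 and Bowtie, with the build mm10; the counting of RNA-seq reads, and its use of strand, is not described there.

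Symbols were joined to 30231 of 30409 identifiers; for 6 symbols with more than 1 identifier, that of higher mean value was taken. Whole reads were recovered as value times gene length times library size, with library sizes set by ratios between libraries and by mitochondrial genes of known length (12 of 13 matched), taking the shortest whole length at which every library gave whole reads within the printed digits. All 30409 genes gave such a solution, 475 of them at 0 throughout; the shortest length can understate a gene's reads by a whole-number factor. Implied library sizes were 1.15 (irradiated cKO), 0.895 (irradiated WT), 1.14 (steady-state cKO) and 1.04 (steady-state WT) times the recovered reads. The procedure was tested on simulated data.

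Differences are log2 of FPKM + 1, cKO minus WT or irradiated minus steady state. The background is all genes that reached 5 FPKM in 1 or both libraries compared, and thresholds were 1.5-fold and 2-fold. FPKM intervals are Clopper-Pearson, ratio intervals conditional exact binomial. No p-value was computed. Genes to name were all 8 genes, up to 3 per lipid list and 2 per marker list with the largest differences, and the 6 nearest in pattern; not every gene the rule takes in is printed. Members and lists were chosen with earlier results of these data known, and 4 genes of the lists are not reported here. Promoters are from RefSeq (GRCm38.p6). Computation used Python 3.11.15 with numpy 2.4.6, pandas 2.3.3, scipy 1.17.1 and numba 0.67.0.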

Additional observations from a re-analysis of the deposited data

Results flagged for a closer look

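For 4 of the 8 cholesterol genes the cKO library was higher than the WT library at steady state and lower than it after irradiation, with both counting intervals off a ratio of 1. The difference between the conditions (irradiated less steady state, log2 of FPKM + 1) was -1.22 for Idi1, -0.99 for Sqle, -0.56 for Lss and -0.65 for Srebf2. With 1 library a group these differences were not tested. Negative values of this kind were common, with a median of -0.40 and quartiles of -0.56 and -0.14 for 7772 genes. Between the irradiated libraries the median over all genes kept was -0.45, so lower values in the cKO library were common. Relative to that median Idi1 stood 0.19 lower, while Sqle stood 0.13, Lss 0.23 and Srebf2 0.0044 higher. How many of all genes had the same pattern was not counted. Under the 8 scales and pseudocounts including the one reported, the irradiated difference was negative in all 8 for Idi1, while it was positive in 3 of 8 for Sqle, 3 of 8 for Lss and 1 of 8 for Srebf2.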

How the results depend on the processing

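No paired analysis was possible because each group holds 1 library and no test was run. A change of pseudocount cannot turn the sign of a difference. At steady state all 8 genes stayed higher in the cKO library under every scaling tried. Their number at least 1.5-fold higher was 3 as reported, 5 without the 50 most abundant genes, 4 with a pseudocount of 0.1 or read totals, 2 with the upper quartile or centring, and 0 with a 2-fold threshold, with a pseudocount of 5 and with a minimum of 20 FPKM; the median of 0.51 became 0.72 without the abundant genes and 0.33 at the 20 FPKM minimum, which leaves Fdft1 and Srebf2. Without the abundant genes the median over all genes kept at steady state moved as well, from 0.0078 to 0.21. Between irradiated libraries the 1 gene 1.5-fold lower, Idi1, became 0 with the 2-fold threshold, the pseudocount of 5, the 20 FPKM minimum (which leaves no gene) and every rescaling except by the upper quartile. There the median of -0.16 became 0.060 without the abundant genes and 0.29 when centred on all genes, so its sign depends on the scale. The median over all genes kept there became -0.062 without the abundant genes. For irradiated against steady-state WT, the 2 genes 1.5-fold higher became 1 with a pseudocount of 5, without the abundant genes, with read totals and with centring, 3 with a pseudocount of 0.1, median of ratios or the upper quartile, and 0 with the 2-fold threshold or the 20 FPKM minimum. The 2 lower became 1 with the pseudocount of 5, the upper quartile, the 2-fold threshold and the 20 FPKM minimum. The median over the 8 in this pair became 0.37 with the upper quartile and -1.80 at the 20 FPKM minimum, which leaves Srebf2 alone. With the upper quartile the median over all genes kept in this pair became 0.76. For irradiated against steady-state cKO, the 4 lower became 2 with the pseudocount of 5, median of ratios, upper quartile, centring, the 2-fold threshold and the 20 FPKM minimum, and 5 with a pseudocount of 0.1. The median over the 8 became -0.73 with a pseudocount of 0.1, -0.12 with the upper quartile, -0.27 with centring and -1.53 at the 20 FPKM minimum. The median over all genes kept in that pair became 0.45 with the upper quartile. Among the changes in counts, fewer genes enter at the 20 FPKM minimum, and the 2-fold threshold is stricter. A larger pseudocount draws every difference towards 0. Rescaling multiplies all values of a library by the same factor, and centring subtracts the same value from all differences of a comparison. Depth limits Fdps, with 5 to 20 reads.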
